A study of Mus musculus with 150 samples.

Results

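The cells described here came from T7, a lung tumour of a mouse, and were divided by whether chromosome 2 was level with the rest of the cell's genome or raised above it. Of 50 T7 cells, 48 passed a limit on noise, and the median log2 ratio of chromosome 2 placed 9 of them in a flat class (under 0.12) and 34 in a gained class (at least 0.32). The other 5 lay between these bounds and were left out of the comparison. Both classes together hold 43 of the 150 cells sequenced in the series. The series took single-cell genomic DNA from 3 microdissected tumours, T1, T7 and T9, of 1 animal, labelled M3, at 30 weeks, with 50 cells from each tumour, and 145 cells passed the same limit.

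The labels describe the source as alveolar type 2 cells of lung tissue. They list, for the study as a whole, mixed C57BL/6 x Sv129 mice and strains that include Trp53flox/flox, Rosa26LSL-tdTomato and Rosa26LSL-Luciferase. Tumours of the study were induced with AdSPC-Cre, an adenovirus whose Cre is driven by the surfactant protein C promoter of alveolar type 2 cells, or with AdCMV-FlpO. Which reporter allele and which virus this animal had is not given in the labels at hand. Flat and gained cells shared animal, tumour, genotype and time point, so they differ by no treatment. DNA holds no expression, so the labelled cell type could not be checked against its marker genes.

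Aneuploidy is an abnormal number of whole chromosomes, and arises when chromosomes are missegregated at mitosis. Lung tumours that lose p53, the product of Trp53 and a guard against the growth of cells with damaged or unbalanced genomes, commonly become aneuploid. In low-pass sequencing of a single cell, the share of reads that fall on a chromosome follows its copy number relative to the rest of that cell. A chromosome present in an extra copy is therefore read at a raised level, while a doubling of the whole genome leaves every level where it was.

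Levels below are medians of the deposited log2 ratio over the bins of a chromosome, of about 500 kb each, after the median of all autosomal bins of the same cell was set to 0. A level of 0.32 corresponds to 2.5 copies against 2 and was called a gain, and -0.42 corresponds to 1.5 copies against 2 and was called a loss. A level of at least 0.12 in size, the bound of the flat class, is called a departure. All cells come from 1 tumour of 1 animal and do not replicate a condition. No test was made, values are given as medians with the SD and range over cells, and intervals on shares are exact Clopper-Pearson 95% intervals that cover counting error only. The odd and the even bins of a chromosome were read separately. Their medians typically differed by 0.01 in flat and 0.02 in gained cells, and by up to 0.08 and 0.10. A departure of 0.12 exceeds this reading error, but odd and even bins share any error of the whole chromosome. Such an error was not measured, so a departure may hold some of it.

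The level of chromosome 2 chose the classes and is a description. It lay between -0.09 and 0.11 in the flat cells, with a median of 0.01, and between 0.34 and 0.51 in the gained cells, with a median of 0.42. The highest flat cells, 180071 and 180074, lay at 0.11 and 0.10, and the lowest gained cells, 180096 and 180097, at 0.34. The 5 cells between the bounds lay at 0.30 to 0.32, next to the gained class and far from the flat cells. The depth of the median flat cell was 48.6 Mb of sequenced bases (36 to 89.7) and that of the median gained cell 75.1 Mb (27.1 to 140.3). Noise, the scatter between neighbouring bins, had a median of 0.14 in flat cells (0.11 to 0.17) and 0.16 in gained cells (0.11 to 0.24). The flat class was thus sequenced less deeply but was not noisier, and both ranges overlapped.

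Away from chromosome 2, flat cells differed far more from each other than gained cells did. Of the 19 other chromosomes, X included, the median flat cell departed on 6, with a range of 0 to 13, and the median gained cell on 2, with a range of 1 to 6. At least 5 departing chromosomes were found in 6 of 9 flat cells (66.7%, 29.9 to 92.5) and in 2 of 34 gained cells (5.88%, 0.720 to 19.7). The same count was 45 of 50 in T9 and 47 of 47 in T1. With the ratio taken from depth, set against T1 and T9 cells that themselves carry changes, the median was 8 in both classes and this contrast was lost. The SD over cells was larger in the flat than in the gained class for 17 of the 19 chromosomes. Most departures of flat cells were small: the median number of chromosomes past the thresholds of gain or loss was 0 in flat cells (0 to 3) and 1 in gained cells (0 to 3).

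**Figure D1:**
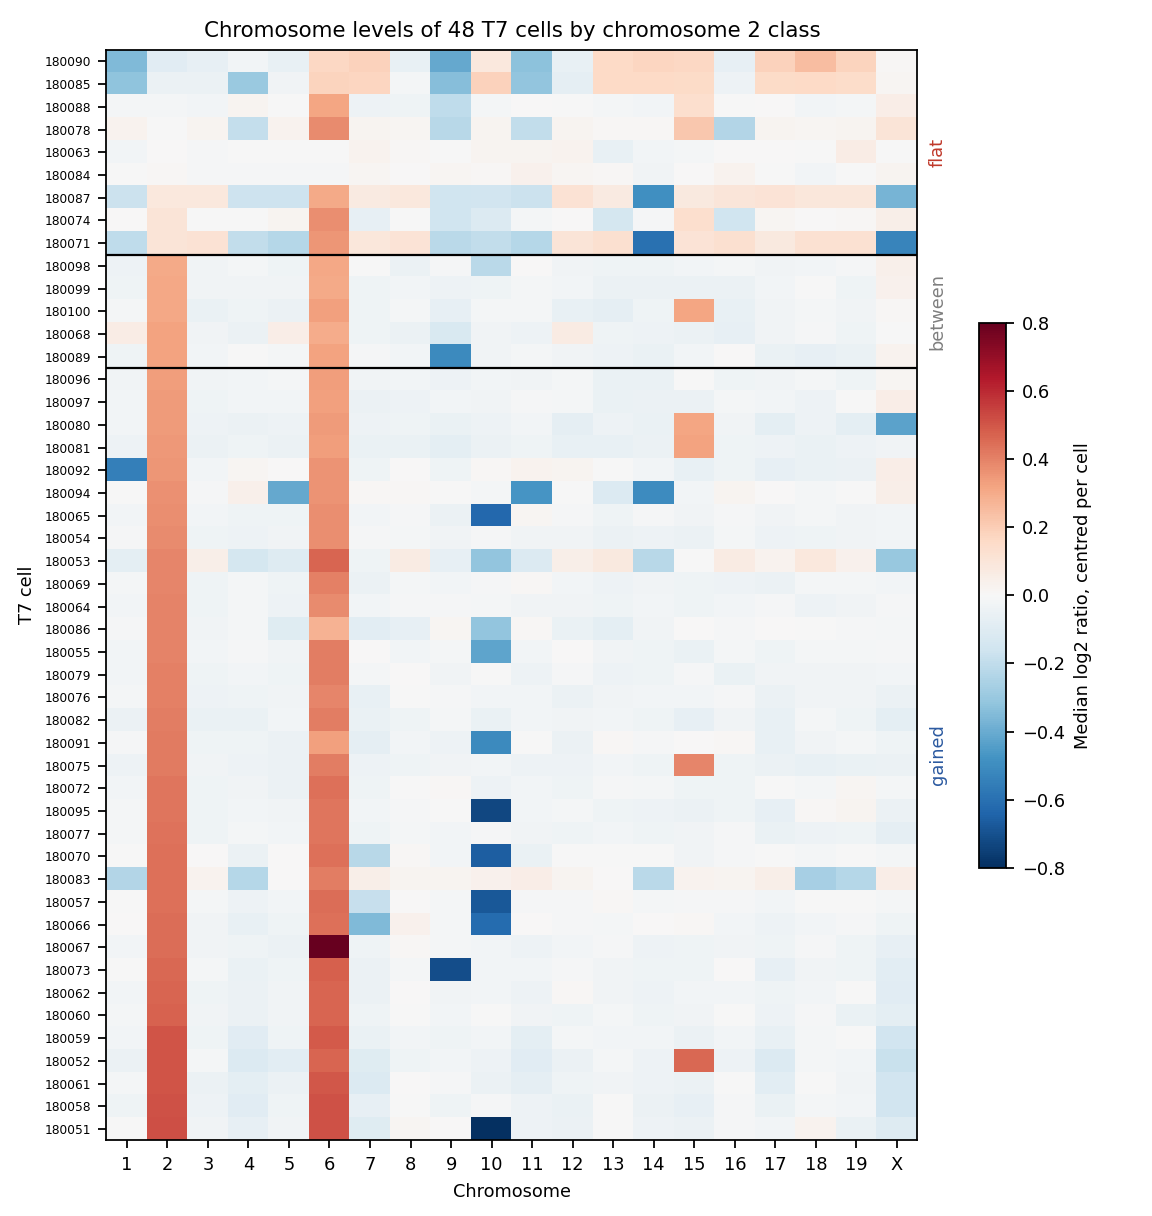
Median log2 ratio of each chromosome (columns) in each of the 48 kept T7 cells (rows, ordered by class and by chromosome 2 level), centred per cell; red is above and blue below the cell's autosomal median. The gained cells share raised chromosomes 2 and 6 and little else, while the 9 flat cells at the top differ among themselves on many chromosomes.

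Chromosome 6 carries Met and Braf, growth-signalling kinase genes, and the Rosa26 locus used for reporter alleles. In the flat cells its levels were -0.01 in 180063, -0.01 in 180084, 0.16 in 180090, 0.18 in 180085, 0.30 in 180087, 0.31 in 180088, 0.35 in 180071, 0.37 in 180074 and 0.38 in 180078. Thus 2 cells were level, 2 were slightly raised and 5 lay near the threshold or past it. A gain was called in 3 of 9 flat cells (33.3%, 7.49 to 70.1) and in 33 of 34 gained cells (97.1%, 84.7 to 99.9), and a departure of at least 0.12 in 7 of 9 and 34 of 34. The class medians were 0.30 (SD 0.15, n = 9 cells) and 0.41 (SD 0.09, n = 34 cells), a difference of 0.11, smaller than the SD in flat cells. That difference was 0.17 without cell 180071, 180074, 180078, 180087 or 180088, 0.18 with centring on the mode and 0.27 with the narrower bounds of the classes. Among cells that the rule chose as flat on chromosome 2, chromosome 6 was therefore raised by at least 0.12 in 7 of 9 and called gained in 3. In 180085 and 180090 it did not stand clear of other raised chromosomes. With the ratio taken from depth, set against T1 and T9 cells that carry changes on chromosome 6, it was called gained in 0% of flat and 2.94% of gained cells.

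Chromosome 9 holds several tumour suppressor genes, among them Atm, a DNA damage kinase gene. It lay at -0.41 in 180090, -0.34 in 180085, -0.22 in 180078, -0.21 in 180071, -0.20 in 180088, -0.16 in 180087, -0.16 in 180074, and near 0 in 180063 and 180084. The same 7 flat cells that were raised on chromosome 6 were thus lowered on chromosome 9 (77.8%, 40.0 to 97.2), against 1 of 34 gained cells (2.94%, 0.0744 to 15.3). The exception in the gained class was 180073, at -0.71. The class medians were -0.20 (SD 0.14) and -0.02 (SD 0.12), a difference of 0.18 that exceeds either SD, although the ranges overlapped through 180063, 180084 and 180073. No flat cell passed the threshold of loss (0%, 0 to 33.6), and 180090 lay just above it. With the ratio taken from depth, set against T1 and T9 cells that carry changes on chromosome 9, the difference was 0.21. There 0% of flat and 2.94% of gained cells lay at or under -0.12, so the contrast of shares was lost.

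Chromosome 15, which carries the oncogene Myc, differed in the opposite direction. It was raised by at least 0.12 in 5 of 9 flat cells (55.6%, 21.2 to 86.3), at 0.22 in 180078, 0.17 in 180090, 0.15 in 180085, and 0.14 in 180074 and 180088, and in 4 of 34 gained cells (11.8%, 3.30 to 27.5). The 4 gained cells lay higher, at 0.46, 0.39, 0.32 and 0.31, and 3 of these were called, while no flat cell was. The class medians were 0.14 (SD 0.08) in flat and -0.03 (SD 0.13) in gained cells, a difference of -0.16. Chromosomes 9 and 15 were the only ones of the 19 whose class medians differed by at least 0.15, which is 10.5% of them. With centring on the mode, 3 flat cells (33.3%) were raised on chromosome 15 and the difference was -0.10. The difference also fell just short of 0.15 with chromosome 2 left out of the centre, or without cell 180074, 180078, 180085, 180088 or 180090.

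Chromosome 10 was the main source of variation in the gained class. It was called lost in 8 of 34 gained cells (23.5%, 10.7 to 41.2), at -0.87 to -0.42, and lay at -0.32 and -0.31 in 2 more. The median of all 34 cells was -0.03 (SD 0.27). No flat cell was called, but 180071 and 180087 lay at -0.19 and -0.15 and 180085 at 0.18, and the flat median was 0.01 (SD 0.12). Chromosome 14 was called lost in 2 of 9 flat cells (22.2%, 2.81 to 60.0), 180071 at -0.60 and 180087 at -0.49, and in 1 of 34 gained cells (2.94%), 180094 at -0.51. The profiles of these 2 flat cells correlated at 0.92. The flat share was 12.5% when 1 of them was left out and 0% with the narrower bounds of the classes. The remaining flat cells ranged up to 0.17 on chromosome 14, and the class medians, -0.02 (SD 0.27) and -0.04 (SD 0.09), differed by less than either SD.

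Over the other 14 chromosomes the class medians differed by -0.09 to 0.14. Chromosome 11, where Trp53 lies, came closest to 0.15: its flat median was -0.17, with 5 of 9 flat cells at or under -0.12 against 1 of 34 gained cells, and the difference of 0.14 became 0.07 without 180071, 180078, 180085 or 180090 and 0.08 without 180087. Leaving out 180063, 180074, 180084 or 180088 raised it to 0.16, and it was 0.17 with centring on the mode and with the ratio taken from depth. Chromosomes 1 and 4 were each lowered in 4 of 9 flat cells and 2 of 34 gained cells. Chromosomes 3, 8 and 12 did not depart in any flat or gained cell. The ranges of the classes overlapped on every chromosome except chromosome 2.

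**Figure D2:**
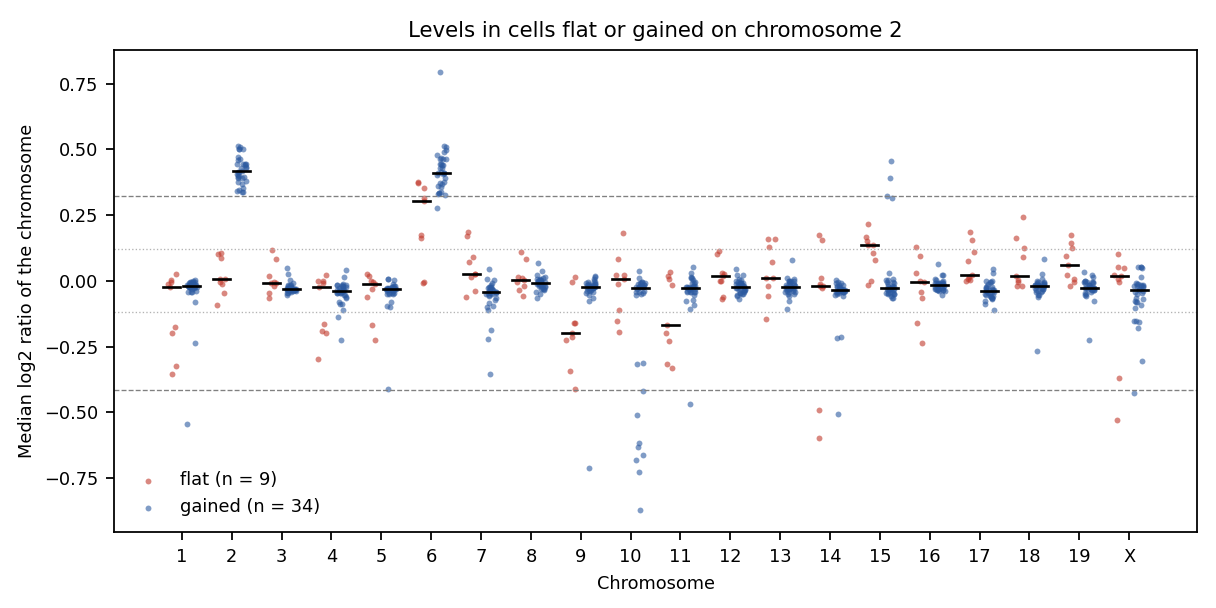
Median log2 ratio of each chromosome in the 9 flat (red) and 34 gained (blue) cells; points are cells, black bars are class medians, dotted lines mark departures of 0.12 and dashed lines the thresholds of gain and loss. The flat median lies lower on chromosome 9 and higher on chromosome 15 by at least 0.15. On chromosome 11 it lies lower by 0.14, less than the SD of flat cells there. Chromosome 10 losses are all in gained cells, and the classes overlap on every chromosome but 2.

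The flat class was not uniform, and cells of like profile were found in it. Likeness was measured over 456 windows of 10 bins on the autosomes without chromosome 2, as a correlation across windows of the genome, which are not independent. The median correlation was 0.34 over the 36 pairs of flat cells, 0.52 over 561 pairs of gained cells and 0.32 between flat and gained cells. All points of a cell share its library, and chromosome 6 was among the windows. For each of the 9 flat cells the most similar of all kept cells was another flat cell. For 180074, 180078 and 180088 the margin was narrow: the best flat cell matched at 0.776, 0.739 and 0.776. A cell between the bounds matched them at 0.760, 0.723 and 0.774. The grouping that follows was made after these values were seen and is a description.

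Cells 180063 and 180084 were level on every chromosome as a whole. Neither had a departing chromosome, segments departing by at least 0.12 took 0.471% of the autosomal genome outside chromosome 2 in each, and their largest levels outside chromosome 2 were 0.06 and 0.03 in size. None of the 34 gained cells and none of the T1 or T9 cells was level on all 19 chromosomes. Their sequenced bases, 86.6 and 52.6 Mb, lay within the range of the other flat cells, and noise was 0.12 and 0.13. Their correlation with each other was 0.37, the lowest best match among the flat cells.

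Cells 180071 and 180087 matched each other at 0.92. In both, 11 chromosomes (2, 3, 7, 8, 12, 13 and 15 to 19) shared a level of 0.11 and 0.09, chromosomes 1, 4, 5, 9, 10 and 11 a level of -0.21 and -0.17, and chromosome 6 stood above these at 0.35 and 0.30. Chromosome 14 lay at -0.60 and -0.49 and X at -0.53 and -0.37. The levels therefore fell into steps, and the 3 upper steps held the same chromosomes in both cells. Chromosomes 14 and X shared the lowest step in 180071 and stood on separate steps in 180087. Neighbouring steps differed by ratios of 1.19, 1.24 and 1.28 in 180071, and of 1.16, 1.19, 1.15 and 1.09 in 180087. For scale, 6 copies over 5 give 1.2, 5 over 4 give 1.25 and 4 over 3 give 1.33, and the ratios of 180087 did not follow such a series. In these cells the centre of 0 falls between the step of 11 and the step of 6 chromosomes, so chromosome 2 at 0.11 and 0.09 shared the step of 10 other chromosomes and was not raised above them.

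Cells 180085 and 180090 matched each other at 0.87. Chromosomes 1, 9 and 11 were lowest in both, at -0.32, -0.34 and -0.32 in 180085 and -0.35, -0.41 and -0.33 in 180090. Chromosomes 6, 7, 13, 14, 15, 17, 18 and 19 lay at 0.14 to 0.18 in 180085 and 0.16 to 0.24 in 180090, so chromosome 6 did not stand clear of the other 7. In 180085 these formed a step with chromosome 10, while in 180090 no gap of 0.1 parted them from the chromosomes below, down to -0.09. They differed on chromosome 4, at -0.30 in 180085 and -0.02 in 180090, and on chromosome 10, at 0.18 and 0.08. In 180090 the proximal part of chromosome 10 lay at 0.15 and its distal part at -0.05, while in 180085 they lay at 0.18 and 0.17. Outside the flat class, the cells nearest to 180085 and 180090 came from other tumours, T1 cell 180034 at 0.61 and T9 cell 180120 at 0.53.

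Cells 180074, 180078 and 180088 shared a raised chromosome 6 (0.37, 0.38 and 0.31), a lowered chromosome 9 (-0.16, -0.22 and -0.20) and a slightly raised chromosome 15 (0.14, 0.22 and 0.14), and matched each other at 0.71 to 0.78. Cell 180078 was also lowered on chromosomes 4, 11 and 16, at -0.19, -0.20 and -0.23. Cell 180074 was lowered on 13 and 16, at -0.14 and -0.16. Their nearest cells outside the flat class were T7 cells between the bounds, 180100 for 180074 (0.76) and 180078 (0.72) and 180089 for 180088 (0.77). Those between cells carried a raised chromosome 15 at 0.32 (180100) and a lowered chromosome 9 at -0.51 (180089) beside chromosomes 2 and 6.

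**Figure D3:**
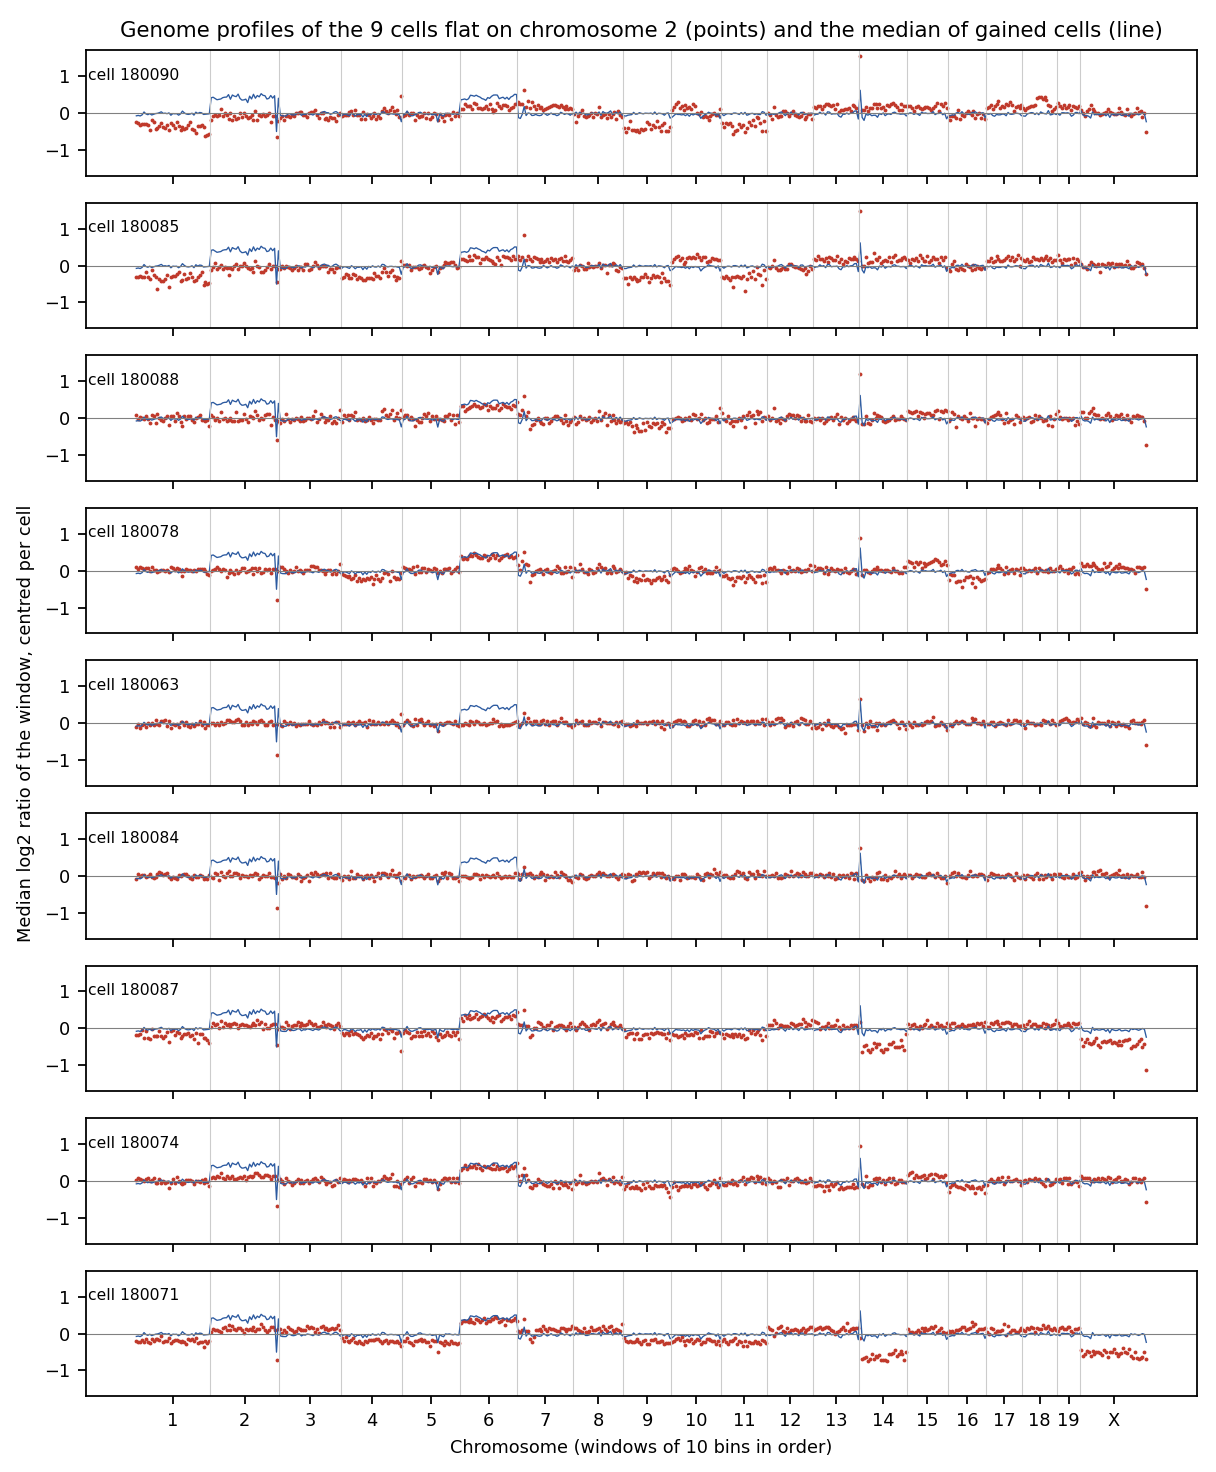
Log2 ratio along the genome in windows of 10 bins for each of the 9 flat cells (red points), with the median of the 34 gained cells repeated as a blue line; the vertical lines separate chromosomes. Cells 180063 and 180084 run flat along 0, cells 180071 and 180087 resemble each other, as do 180085 and 180090 outside chromosomes 4 and 10, while isolated windows at the end of chromosome 2 and the start of 14 stand apart in most cells, level ones included.

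Breaks within chromosomes that T9 carried were not seen in flat cells, nor in the median gained cell, where the same 4 differences lay between -0.04 and 0.00. The start of chromosome 9 stood 1.08 above the rest of it in the median T9 cell and 0.28 in T1, but 0.00 in flat cells (-0.05 to 0.06). The start of chromosome 11 stood 0.56 above its end in T9 and -0.02 in flat cells (-0.08 to 0.02). Proximal minus distal chromosome 6 was -0.39 in T9, -0.11 in T1 and 0.00 in flat cells (-0.03 to 0.02). The start of chromosome 17 minus its end was -0.43 in T9 and 0.02 in flat cells (-0.02 to 0.11). A lowered chromosome 9 in flat cells was therefore a whole chromosome at a like level, which differs in shape from that of T9.

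Segments gave a like account. Called segments took a median of 4.96% of the autosomal genome outside chromosome 2 in flat cells (0 to 12.1) and 6.84% in gained cells (4.70 to 24.4). Segments departing by at least 0.12 took 34.9% in flat cells (0.471 to 71.0) and 11.8% in gained cells (7.07 to 34.7). Called extents overlapped, and with the narrower bounds of the classes their medians were 1.07% and 6.60%.

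Where along the genome the class medians differed was read from a running median over 11 bins. Of 4790 bins outside chromosome 2, 474 (9.9%) were higher in gained cells by at least 0.15 and 213 (4.45%) were lower. The split was 690 against 84 bins with centring on the mode and 521 against 550 with the ratio taken from depth. Higher bins lay mostly on chromosome 6 (211 of 293 bins), chromosome 9 (167 of 244) and chromosome 11 (67 of 238). Lower bins lay mostly on chromosomes 7 (57 of 283), 17 (53 of 183) and 15 (34 of 202). The longest lower run was at the start of chromosome 7, 3000001 to 26159500 on GRCm38, at 0.14 in flat and -0.04 in gained cells, and the longest higher run was on chromosome 6, 74715285 to 101693529, at 0.27 and 0.44. Neighbouring bins share segments, so these counts are not counts of independent events.

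Genes were read through the segment that holds them, so all genes of a segment share a value. Of 64 listed genes, 10 lie on chromosome 2, which chose the classes, and 54 lie elsewhere. Of those 10, Aurka, a mitotic kinase gene at the end of the chromosome, lay at -0.32 in flat and 0.08 in gained cells, below the rest of chromosome 2 in both classes. It lay at -0.46 to -0.23 in all 9 flat cells, level ones included. As medians over bins, the end of chromosome 2 lay at -0.12 in flat and 0.33 in gained cells. The rest of chromosome 2 lay at 0.01 and 0.43. By the same measure the end also lay below the rest in the other tumours, at 0.07 against 0.17 in T1 and -0.11 against 0.02 in T9. A low end of chromosome 2 was thus not particular to a class or to T7. The segment of Aurka itself was not read in T1 or T9. In flat cells 7 of the 54 lay in a gained segment in at least 20% of cells and 5 in a lost one, beside 6.93% and 5.78% of all bins outside chromosome 2. In gained cells these numbers were 7 and 6, beside 6.12% and 4.45% of bins. Class medians differed by at least 0.15 for 4 of the 54 genes that were higher in gained cells and 1 that was lower, beside 9.9% and 4.45% of bins. The median difference over the 54 genes was -0.02.

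All 7 genes gained in at least 20% of either class lie on chromosome 6. They are Met (17463349 to 17573980), Braf (39603231 to 39725658) and Ret, growth-signalling kinase genes, Mad2l1, a spindle checkpoint gene, Sftpb, a surfactant protein gene, Gt(ROSA)26Sor (113067428 to 113077244), and Cdkn1b, which encodes the cell cycle inhibitor p27. Each lay in a gained segment in 3 of 9 flat cells, at a median of 0.29 (SD 0.15), and was raised by at least 0.12 in 7 of 9. In gained cells Met was gained in 31 of 34 and Braf in 32 of 34, at 0.41 (SD 0.08) and 0.42 (SD 0.09). The class difference was 0.13 for both.

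The 5 genes in a lost segment in at least 20% of flat cells all lie on chromosome 14, with 2 of 9 cells each against 1 of 34 gained cells. These are the tumour suppressor genes Rb1 (73192858 to 73325951) and Bap1, and Sftpc (70520941 to 70524081), Sftpa1 and Sftpd, the surfactant protein genes that mark alveolar type 2 cells. The flat median of Rb1 was -0.02 (SD 0.29), since the other 7 cells lay near 0 or above. The 6 genes in a lost segment in at least 20% of gained cells all lie on chromosome 10. Stk11, a kinase gene that restrains growth, Lyz2, a lysozyme gene expressed in alveolar type 2 cells, Hmga2, a chromatin protein gene of embryonic and dedifferentiated cells, Cdk4, a cell cycle kinase gene, and Mdm2, which encodes the ligase that degrades p53, lay in a lost segment in 10 of 34 gained cells each, and Ros1, nearer the start of the chromosome, in 7. None of these 6 was lost in a flat cell.

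The 4 genes that were higher in gained cells lie on chromosome 9: Atm (53437122 to 53536828), the histone methyltransferase gene Setd2, Rassf1, and Ttk, a spindle checkpoint kinase gene. Each had a flat median of -0.21 (SD 0.14) and a gained median of -0.03, and each lay at or under -0.12 in 7 of 9 flat cells. Keap1, Smarca4 and Yap1, further up the same chromosome, lay at -0.18 in flat cells and -0.03 in gained cells, with a difference of 0.14. The gene that was lower in gained cells is Myc (chromosome 15, 61985341 to 61990361), at 0.13 (SD 0.08) in flat and -0.03 (SD 0.14) in gained cells. Trp53 (chromosome 11, 69580348 to 69591873) lay at -0.17 (SD 0.16) in flat and -0.04 (SD 0.11) in gained cells, with 5 of 9 and 2 of 34 cells at or under -0.12. Its engineered deletion is far shorter than a bin and cannot be read at this resolution.

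Counted by list outside chromosome 2, with the same criterion of 20% of cells, oncogenes had 3 of 17 gained and 0 lost in flat cells, and 3 gained and 3 lost in gained cells. Tumour suppressors had 1 of 15 gained in each class, with 2 lost in flat and 1 in gained cells. Alveolar type 2 genes had 1 of 10 gained in each class, with 3 lost in flat cells and 1 in gained cells. Of 7 plasticity and mesenchymal genes none was called in flat cells and 1 was lost in gained cells, of 4 mitotic genes 1 was gained in each class, and the Rosa26 locus was gained in each class. All bins outside chromosome 2 gave 6.93% gained and 5.78% lost in flat cells and 6.12% and 4.45% in gained cells, and with 1 to 3 members called per list nothing is read from these counts.

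Within the gained class chromosomes 2 and 6 stood at nearly the same level in each cell. The level of chromosome 2 minus that of chromosome 6 had a median of 0.00 in gained cells and lay within 0.05 in 30 of 34. It lay within 0.05 in 5 of 5 cells between the bounds and in 2 of 9 flat cells, 180063 and 180084. The median in flat cells was -0.25. Flat cells were chosen for a low chromosome 2, so their difference mostly restates their chromosome 6 level and is no separate contrast of the classes. The widest exception in the gained class was 180067, with chromosome 6 at 0.79 and chromosome 2 at 0.45. Cell 180086, with chromosome 6 at 0.28, was the 1 gained cell not called for chromosome 6.

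The sets of called autosomes were few. In gained cells 19 of 34 had chromosomes 2 and 6 gained and no other call, 8 had these with loss of chromosome 10 and 3 had these with gain of chromosome 15. The other 4 cells each had a set of their own. In flat cells 5 of 9 had no call, 2 had chromosome 6 gained alone, 1 had chromosome 14 lost alone and 1 had both.

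Over the 34 gained cells the levels of chromosomes 2 and 6 rose together (Pearson r = 0.63, Spearman rho = 0.85, and r = 0.60 without the 2 cells farthest from the median). The level of chromosome 2 also followed sequenced bases (r = 0.45, rho = 0.41, and 0.49 without 2 cells) and fell with the number in the cell label (r = -0.59, rho = -0.54, and -0.50 without 2 cells). Sequenced bases fell with that number as well (r = -0.68, rho = -0.67), and the level of X rose with it (r = 0.40, rho = 0.48, and 0.33 without 2 cells). What the number stands for is not given in the labels. These cells share a tumour and the depth gradient, and the cells were chosen by chromosome 2, so the relations are descriptions over cells with no test. Flat cells carried numbers from 180063 to 180090 among those of gained cells, and the part of depth in the spread of gained levels was not tested.

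**Figure D4:**
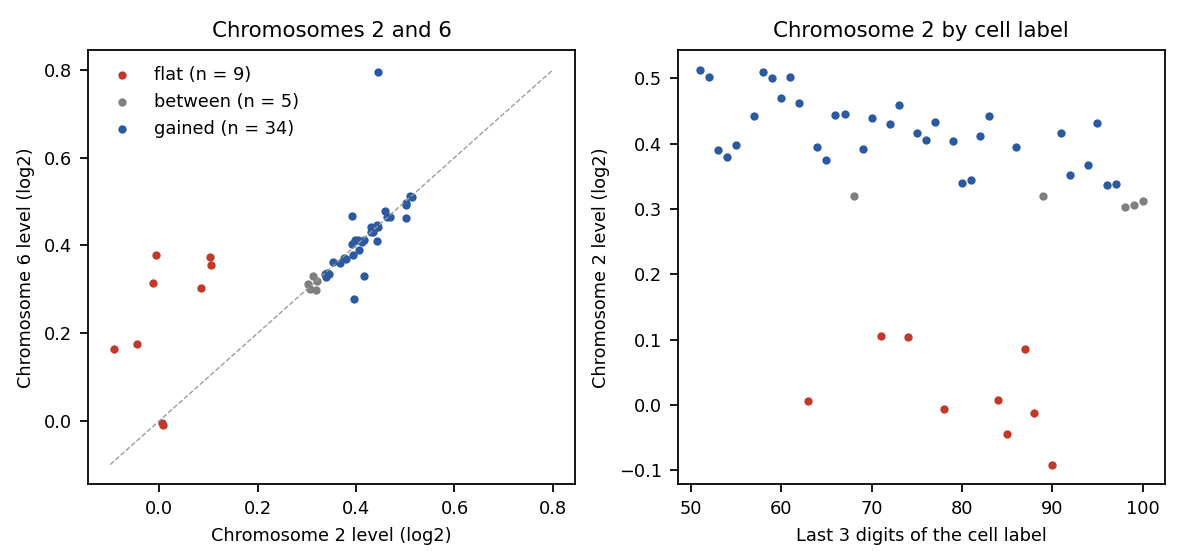
Left, chromosome 6 level against chromosome 2 level (log2) of the 48 kept T7 cells, with the line of equal levels dashed; right, chromosome 2 level against the last digits of the cell label. Gained (blue) and between (grey) cells follow the line except 180067 and a few others, and 7 flat cells (red) lie above it. The rule kept chromosome 2 low in flat cells, so their place above the line mostly restates their chromosome 6 level. Chromosome 2 levels of gained cells decline with label number.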

How the data were processed

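Per the submitters' processing notes, reads of single-cell genomic DNA were mapped to GRCm38 by BWA 0.7.17. The authors deposited a log2 ratio, a depth (coverage signal) and a weight (score) for each of 5331 bins, per the file headers. The making of the log2 ratio and of the weight was not given in the sources used here. Bins on autosomes and X with values in at least 80% of cells were used (5149, of which 4806 were autosomal), each cell was centred on its autosomal median, and cells with noise over 0.267 were left out. Segments of at least 5 bins and 10 Mb came from optimal partitioning by least squares, where a break cost 3 times the noise variance times the natural log of the bin number. Genes were placed with RefSeq coordinates of GRCm38.p6. Named chromosomes and genes are those called in at least 20% of a class, or, for chromosomes, whose medians differ by 0.15. Values are also given for chromosomes that did not meet that rule, among them 1, 4, 7, 11 and 17. Genes of the lists outside that rule, Atm, Setd2, Rassf1, Ttk, Keap1, Smarca4, Yap1, Myc and Trp53, were named after their values were seen. So was Aurka, on chromosome 2, which chose the classes. The members and lists were chosen with earlier results of these data known. The departure of 0.12, the odd and even reading and the grouping of flat cells were chosen after values were seen. Alternatives changed the centre, the summary over bins, the ratio, the filters, the thresholds and the class bounds, and left out each flat cell in turn. Median sequenced bases were 97.7 Mb in T1 and 56.7 Mb in T9. No doublet caller was run, and no pair of cells had identical columns. The scripts were tested on simulated data with planted levels. The software was matplotlib 3.10.9, numba 0.67.0, scipy 1.17.1, pandas 2.3.3 and numpy 2.4.6 under Python 3.11.15. An engineered locus is not reported here.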

Additional observations from a re-analysis of the deposited data

Results flagged for a closer look

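Among 44 groups of chromosome levels looked at, 7 held a cell that stood apart from the others of its group, and all 7 were among the 5 cells between the bounds of the classes. Chance alone sets a cell apart in about 1 of 20 such groups, and these groups share the same cells. Cell 180089 lay at -0.51 on chromosome 9, where the next lowest of the 5 lay at -0.12, and at -0.0559 on chromosome 17. Cell 180100 lay at 0.32 on chromosome 15, where the next highest lay at -0.02, and at -0.0749 on chromosome 13. Cell 180098 lay at -0.22 on chromosome 10. Cell 180068 lay at 0.0568 on chromosome 1 and 0.0549 on chromosome 5. Of these values, 3 were departures of at least 0.12 (chromosomes 9, 10 and 15), on chromosomes that also varied within the flat or the gained class. No cell of the flat class stood apart from its group in this way, and the gained class, with over 10 cells, was not looked at.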

How the results depend on the processing

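Over 223 recomputed values, not counting those that left out a flat cell, 198 were labelled as unchanged. That label allowed a move within the spread of cells, a share within its interval, or a count within 1.5 times. On chromosomes 6, 10, 11 and 14 the SD in flat cells (0.15, 0.12, 0.15 and 0.27) exceeded the size of the reported difference. The label says little there. The chromosome 14 difference changed sign, from -0.02 to 0.002 without chromosome 2 in the centre and 0.0006 with mode centring. On chromosomes 9 and 15, where the reported difference was at least 0.15 in size, 0 changed sign. The count of bins lower in gained cells was 84 with mode centring, 550 with the ratio taken from depth, 119 without low-weight bins, 459 with narrower class bounds, 702 and 64 at sizes of 0.10 and 0.20, and 383 without both level cells, 180063 and 180084. Higher bins numbered 800 and 211 at the same sizes. With the ratio taken from depth, whose reference is T1 and T9 cells that themselves carry changes on chromosomes 6 and 9, chromosome 6 was gained in 0% of flat and 2.94% of gained cells, chromosome 9 departed in 0% of flat cells, flat and gained cells both departed on a median of 8 chromosomes and called segments took 10.8% in flat cells. Stricter thresholds gave chromosome 6 gains in 0% of flat and 29.4% of gained cells and called shares of 0% in both classes, chromosome 14 losses in 0% of flat cells and chromosome 10 losses in 5.88% of gained cells. Looser ones gave chromosome 6 gains in 100% of gained cells. Without both level cells, left out because they had no departure, chromosome 9 departed in 100% of flat cells, which follows from that choice. Without cells of low depth (4 gained, 0 flat) it departed in 0% of gained cells. Narrower bounds gave a chromosome 6 difference of 0.27 and chromosome 14 losses in 0% of flat cells. Leaving out each flat cell in turn gave 354 to 548 higher and 170 to 296 lower bins, differences of 0.10 to 0.17 on chromosome 6, 0.16 to 0.18 on 9, 0.07 to 0.16 on 11, -0.16 to -0.15 on 15, -0.04 to -0.02 on 10 and -0.02 to -0.01 on 14, flat-cell shares of 25% to 37.5% (6 gained), 75% to 87.5% (9), 50% to 62.5% (15) and 12.5% to 25% (14 lost), 5.5 to 7.5 departing chromosomes and 3.32% to 6.02% in called segments. No paired analysis was possible because every cell belongs to 1 tumour and replicate numbers only name cells. With 9 flat cells, shares of the flat class are known only within wide intervals, and departures near 0.1 lie close to the reading error.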

Other observations

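X and Y are not part of the autosomal centre, but X counted among the 19 other chromosomes and in the bins outside chromosome 2. X was called lost in 1 of 9 flat cells, 180071 at -0.53, and in 1 of 34 gained cells, 180080 at -0.43, and lay at or under -0.12 in 2 flat and 6 gained cells. The 181 bins of Y, which entered no comparison, took a median of 0.528% of sequenced bases in flat cells and 0.388% in gained cells, against 0.178% in T1 and 0.477% in T9. In the gained class the cells with the most departures were 180053 and 180083. Cell 180053 had chromosome 10 at -0.31, 14 at -0.22 and X at -0.30, and was the nearest gained cell to flat cell 180071, at a correlation of 0.61. Cell 180083 had chromosomes 1, 4, 14, 18 and 19 at -0.27 to -0.21. Cell 180094 had chromosomes 5, 11 and 14 at -0.41, -0.47 and -0.51, and 180092 had chromosome 1 at -0.54. Chromosome 7 was lowered in 180066 (-0.35), 180070 (-0.22) and 180057 (-0.19), and all 3 had lost chromosome 10.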
